A study of Mus musculus with 7 samples.

Results

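Messenger RNA of 10 components of the Notch pathway was examined in mouse cerebral cortex before birth and in young adulthood. The genes were the receptors Notch1, Notch2 and Notch3, the ligands Dll1, Dll3 and Jag1, the Hes family transcription factors Hes1, Hes5 and Hes6, and the fringe enzyme Mfng. They were taken as the rows of those names in a table of 36666 genes, and all 10 were found and had reads enough to be tested. The tissue was cortex of C57BL/6 mice, an inbred laboratory strain, at embryonic day 17 in 4 samples and in young adults in 3 samples. The labels name no treatment, transgene or mutation and give no exact adult age. They do not say that each sample came from a separate animal, so the spread that p-values are set against may be technical.

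Notch receptors are surface proteins that are cut when a ligand on a neighbouring cell pulls on them, and the freed intracellular part enters the nucleus and switches on target genes with the DNA-binding protein RBPJ. In the embryonic cortex the pathway is known for keeping radial glia, the stem cells that line the ventricle, from becoming neurons, through Hes1 and Hes5, which repress proneural genes. Proneural factors in turn switch on Dll1, the ligand shown to neighbouring cells, and fringe enzymes add sugars to the receptor that change how it responds to different ligands.

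Across the 10 genes, 8 fell from embryonic to adult cortex, 1 rose and 1 did not pass the test. Calls were made with limma on the deposited values, a log2-like scale on which a difference of 1 is close to 2-fold, at an adjusted p under 0.05 after Benjamini-Hochberg correction over 22828 genes. Of all genes tested 33.9% were lower and 35.8% higher in the adult, 69.7% in all, so that a change as such was common. The median difference, adult minus embryonic, was -1.19 over the 10 members and 0.03 over all genes tested. Against a stricter question, whether the difference was beyond 2-fold (limma's treat test), 4 of the 10 genes were lower, namely Dll1, Dll3, Hes6 and Mfng, where 8.47% of all genes tested were. On the deposited scale the values of the stages did not overlap for 8 of the 10 members and for 68.9% of all genes tested. Levels are counts per 1e+06 reads in genes (CPM), computed from the whole read counts that the deposited values encode, which summed to between 18444271 and 23606525 reads a sample.

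**Figure D1:**
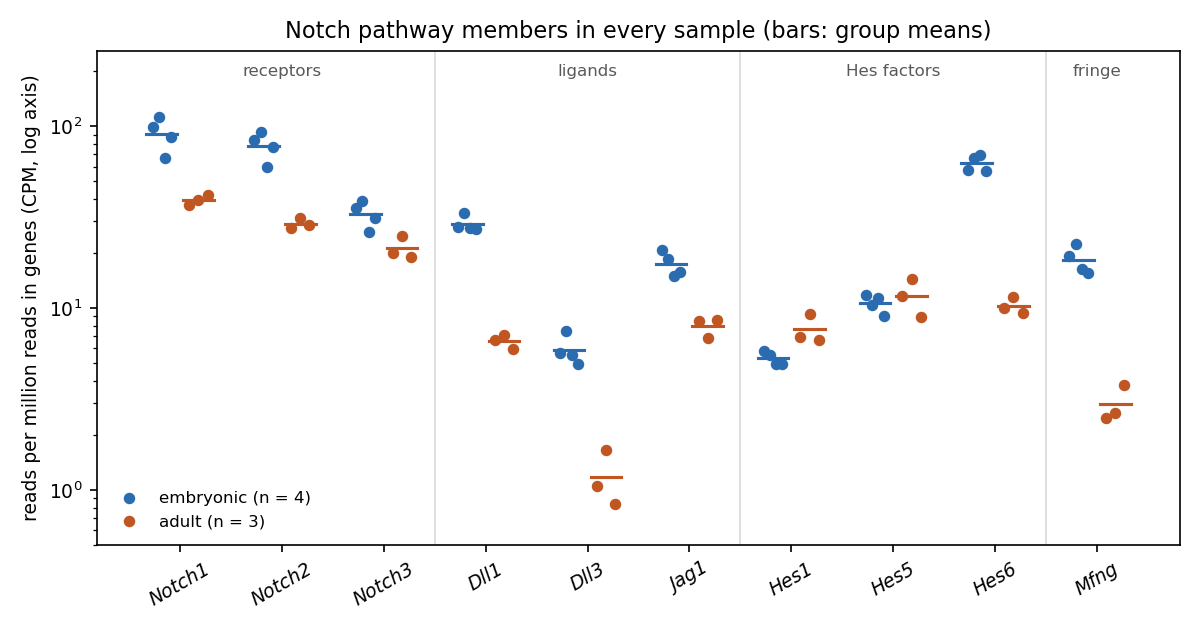
CPM (log axis) for the 10 members in each sample, with 4 embryonic and 3 adult samples as points and group means as bars. Hes6, Mfng, Dll1 and Dll3 lie far lower in the adult, Hes1 lies slightly higher, and the Hes5 points of both stages overlap.

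All 3 receptors were lower in the adult, and the decrease was smallest for Notch3. Notch1, a receptor of neural stem cells, stood at 98.5, 113, 66.6 and 87.1 CPM in embryonic samples 1 to 4 and at 37.0, 39.3 and 42.1 CPM in adult samples 1 to 3. Every embryonic sample was above every adult sample, and embryonic sample 3 was the lowest of its group. The group means were 91.2 ± 19.5 (SD, n = 4) and 39.4 ± 2.55 CPM (SD, n = 3), and the decrease was 1.08 (SE 0.14) on the deposited scale (limma, adjusted p = 7.56e-06).

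Notch2, its close relative with overlapping roles, stood at 83.8, 93.3, 59.4 and 76.8 CPM in the embryonic samples and at 27.5, 31.5 and 28.5 CPM in the adult samples. The groups were apart, again with embryonic sample 3 lowest before birth. The embryonic level was 2.69-fold the adult level, a decrease of 1.30 (SE 0.13, limma adjusted p = 4.80e-07). For a change beyond 2-fold the adjusted p of limma's treat test was 0.0724, so Notch2 missed that threshold with all samples and passed it without embryonic sample 3, where the decrease was 1.42.

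Notch3, which in the adult brain is best known from the mural cells of blood vessels, stood at 35.6, 38.8, 26.3 and 31.4 CPM before birth and at 20.1, 24.99 and 19.0 CPM in the adult. The lowest embryonic sample, sample 3, and the highest adult sample, sample 2, nearly met on this scale and overlapped on the deposited scale. The decrease was 0.52 (SE 0.13, limma adjusted p = 0.00278), and without a filter on low genes the adjusted p was 0.0510. In bulk tissue fewer cells of a type and less RNA per cell cannot be told apart.

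The decreases of the receptors were then compared within samples. Reads of Notch1 outnumbered those of Notch3 by 2.53 to 2.90 times in the embryonic samples and by 1.57 to 2.21 times in the adult samples. The within-sample difference of Notch1 minus Notch3 changed by -0.56 on the deposited scale and that of Notch2 minus Notch3 by -0.77. Between Notch1 and Notch2 the change was 0.21, with Notch2 the one that fell further. In each of these pairs the 4 embryonic and 3 adult values did not overlap, which gives the smallest p the 35 possible assignments of samples allow (exact permutation test, two-sided, p = 0.0571, or 0.0643 after Benjamini-Hochberg correction over the 9 pairs compared), so no pair could pass 0.05.

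**Figure D2:**
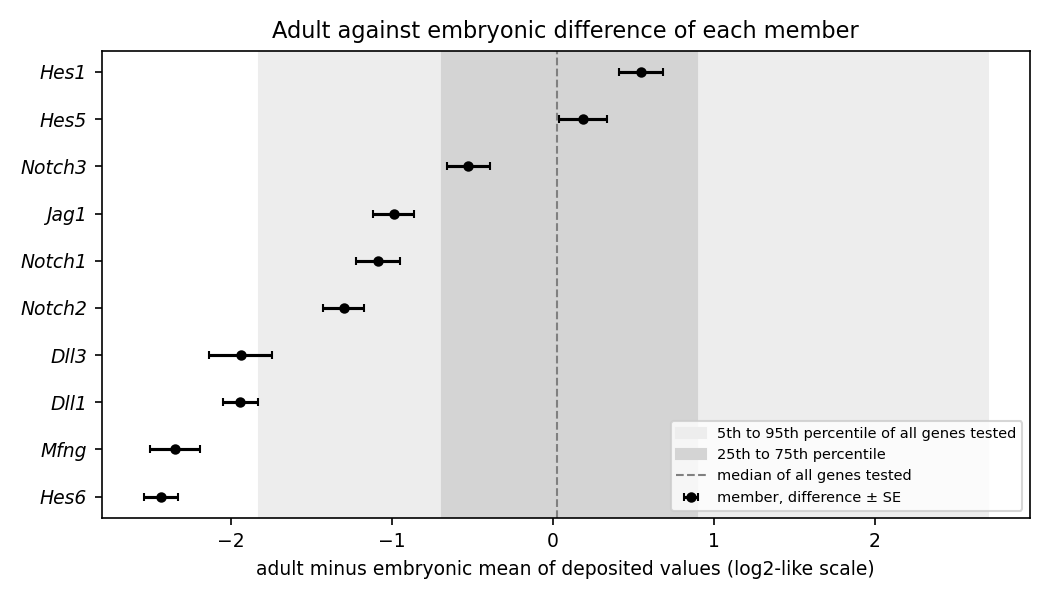
Difference of adult minus embryonic means on the deposited log2-like scale for each member, with bars for the standard error of the limma fit, against percentiles of all 22828 genes tested. Hes6 at -2.43, Mfng at -2.35, and Dll1 and Dll3 at -1.94 lie below the 5th percentile of -1.82, and Hes1 and Hes5 lie right of 0.

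All 3 ligands fell, by 1.94 for each Delta ligand and by 0.99 for Jag1. Dll1, the main Delta ligand of cells that are turning into neurons, stood at 28.1, 33.3, 27.6 and 27.1 CPM before birth and at 6.72, 7.16 and 5.98 CPM in the adult. The groups were far apart and each was tight. The embryonic level was 4.38-fold the adult level, a decrease of 1.94 (SE 0.11, limma adjusted p = 1.12e-09), and the treat test for a change beyond 2-fold gave an adjusted p of 3.59e-06. In the GENCODE M21 annotation 867 exonic bases of Dll1 overlap A930024N18Rik on the other strand, and whether counting used strand is not stated in the sources. That gene had 3.73 CPM before birth and 3.08 CPM in the adult and did not pass (limma adjusted p = 0.319). If counting ignored strand, reads in the shared bases could not be assigned to 1 gene of the pair. Notch1 likewise overlaps 0610009E02Rik by 1068 exonic bases, a gene with 0.708 and 0.722 CPM, and Notch3 overlaps Gm17276, which has no row in the table, by 488 bases.

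Dll3, a divergent Delta protein that acts mainly inside the cell that makes it, was the lowest member per kilobase of exon at both stages. It stood at 5.64, 7.44, 5.55 and 4.94 CPM before birth and 1.05, 1.65 and 0.836 CPM in the adult. Adult samples 1, 2 and 3 held 24, 39 and 19 reads of it, and none came near the embryonic levels. The embryonic level was 5.0-fold the adult level, and the decrease was 1.94 (SE 0.20, limma adjusted p = 7.63e-07) on the deposited scale, where low counts are drawn together, and 2.32 as a log2 ratio of mean CPM. The treat test gave an adjusted p of 0.00113.

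Dll1 and Dll3 could not be separated in how far they fell. Reads of Dll1 were 4.47 to 5.48 times those of Dll3 in the embryonic samples and 4.33 to 7.16 times in the adult samples. The within-sample difference changed by -0.00205 (exact permutation test, two-sided, p = 0.971, and the same after Benjamini-Hochberg correction over the 9 pairs), with an SD of 0.10 among embryonic and 0.29 among adult samples. The sign of so small a change turned in 3 of the alternatives tried.

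Jag1, a Notch ligand of the Serrate type, stood at 20.9, 18.5, 15.01 and 15.8 CPM before birth and at 8.51, 6.86 and 8.58 CPM in the adult. No adult sample reached the lowest embryonic sample. The decrease was 0.99 (SE 0.13, limma adjusted p = 8.54e-06), or 2.20-fold, and the change of the Dll1 minus Jag1 difference was -0.95 with no overlap between stages (exact permutation test, p = 0.0571, adjusted over the 9 pairs 0.0643).

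The 3 Hes factors parted. Hes6, a family member that does not repress proneural genes as Hes1 does but counters Hes1 and favours neuronal differentiation, fell beyond 2-fold. It stood at 57.8, 66.5, 69.9 and 56.7 CPM in the embryonic samples and at 10.04, 11.6 and 9.37 CPM in the adult samples. The adult samples lay far below and close together. The embryonic mean was 62.7 ± 6.49 CPM (SD, n = 4) and the adult mean 10.3 ± 1.13 CPM (SD, n = 3), 6.07-fold apart, a decrease of 2.43 (SE 0.11, limma adjusted p = 1.04e-10, treat adjusted p = 4.06e-08). Of all genes tested, 2.24% had a difference at or below that of Hes6.

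Hes1, a repressor and a direct target of the cut receptor, was the only member that rose. It stood at 5.80, 5.54, 4.94 and 4.94 CPM before birth and at 6.94, 9.32 and 6.69 CPM in the adult. Each adult sample was above each embryonic sample, and adult sample 2 was well above the other two. The adult level was 1.44-fold the embryonic level, an increase of 0.55 (SE 0.14, limma adjusted p = 0.00253). Under quantile normalization the increase was 0.31 and did not pass (limma adjusted p = 0.0588).

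Hes5, the other Hes repressor that Notch switches on in radial glia, did not pass the test. It stood at 11.8, 10.4, 11.4 and 9.01 CPM before birth and at 11.7, 14.5 and 8.97 CPM in the adult. The groups overlapped, and in CPM the adult samples held both the highest and the lowest value. The difference was 0.19 (SE 0.15, limma adjusted p = 0.271), and it was 0.36 without adult sample 3 (limma adjusted p = 0.0389). Its adjusted p ranged from 0.0389 to 0.961 over the alternatives. Exons of Hes5 overlap 433 bases of Gm20421 on the other strand, a gene model with no row in the table.

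The make-up of the Hes reads was compared within each sample. There were 9.96 to 14.1 reads of Hes6 for each read of Hes1 in the embryonic samples and 1.24 to 1.45 in the adult samples. Hes5 reads were 1.82 to 2.30 times those of Hes1 before birth and 1.34 to 1.68 times in the adult. The pairs Hes1 and Hes6, Hes5 and Hes6, and Hes1 and Hes5 changed by 2.98, 2.62 and 0.36 on the deposited scale, each without overlap between the stages (exact permutation test, p = 0.0571, adjusted over the 9 pairs 0.0643).

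RBPJ, proneural factors and Hes repressors are known to bind near the starts of Hes and Delta genes, so the 250 bases before their transcription starts are shown for Hes5, which did not pass the test, and for Hes6 and Dll1, which fell beyond 2-fold. Sequences are from RefSeq on GRCm38.p6, read 5′ to 3′ on the strand of the gene, and capitals mark TGTGGGAA or its reverse complement in Hes5, CAGNTG and TATAAA in Hes6, and CAGNTG and CACGNG in Dll1. The windows are chr4:154960673-154960922 on the plus strand for Hes5, and chr1:91413223-91413472 and chr17:15376933-15377182 on the minus strand for Hes6 and Dll1.
Hes5: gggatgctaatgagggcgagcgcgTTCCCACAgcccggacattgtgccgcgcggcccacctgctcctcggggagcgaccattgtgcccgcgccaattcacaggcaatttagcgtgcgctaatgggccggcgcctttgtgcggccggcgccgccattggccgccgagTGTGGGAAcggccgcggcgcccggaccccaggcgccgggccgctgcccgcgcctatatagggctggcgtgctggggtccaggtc
Hes6: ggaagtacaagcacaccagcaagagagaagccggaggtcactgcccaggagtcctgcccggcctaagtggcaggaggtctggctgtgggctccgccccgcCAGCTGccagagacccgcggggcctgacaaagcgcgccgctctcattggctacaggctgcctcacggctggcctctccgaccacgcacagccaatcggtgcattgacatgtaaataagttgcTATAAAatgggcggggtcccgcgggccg
Dll1: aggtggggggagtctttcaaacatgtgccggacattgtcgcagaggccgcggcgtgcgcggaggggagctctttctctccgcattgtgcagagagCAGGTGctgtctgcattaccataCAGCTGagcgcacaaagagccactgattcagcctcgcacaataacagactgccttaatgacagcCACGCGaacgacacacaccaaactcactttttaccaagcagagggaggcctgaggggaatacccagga

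The table of promoters held 8 of the 10 members, without Hes1 and Mfng, in 10 windows, since Hes6 and Dll1 have more than 1 start. Each motif was searched on both strands, and no match of 1 motif overlapped a match of another in the printed windows. The core of the RBPJ site, TGTGGGAA, occurred only in the Hes5 window among those of members, at 226 and 84 bases before the start, in opposite orientation. It occurred in 1.46% of 32851 windows and at least 2 times in 0.0274% of them. The proneural E-box, CAGNTG, was in 6 of the 10 windows and in 44.8% of all windows, and the Hes-type class C site, CACGNG, in 6 of 10 and in 23.5%. A TATAAA stretch, found in 12.4% of all windows, lay 28 bases before the Hes6 start that is shown. The median GC content was 64.0% in the members' windows and 52.4% in all windows. A match of letters is not evidence of binding, and these data hold no measure of binding.

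Mfng, manic fringe, one of 3 enzymes that extend fucose on Notch, fell beyond 2-fold as well. It stood at 19.5, 22.5, 16.3 and 15.7 CPM before birth and at 2.49, 2.67 and 3.78 CPM in the adult, from 57, 63 and 86 reads. The lowest embryonic sample was well above the highest adult sample, sample 3. The embryonic level was 6.20-fold the adult level and the decrease was 2.35 (SE 0.15, limma adjusted p = 7.78e-09, treat adjusted p = 4.30e-06). Which of Mfng and Hes6 fell further turned with the scale, since the decrease was 2.35 and 2.43 on the deposited values and 2.63 and 2.60 as a log2 ratio of mean CPM.

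The related enzyme Lfng, lunatic fringe, moved the other way, from 11.8 ± 1.15 (SD, n = 4) to 19.3 ± 3.13 CPM (SD, n = 3), an increase of 0.75 (SE 0.12, limma adjusted p = 6.13e-05). Mfng reads were 1.46 to 1.70 times those of Lfng in the embryonic samples and 0.109 to 0.204 times in the adult samples. Thus every embryonic sample had more reads of Mfng and every adult sample more of Lfng. The Mfng minus Lfng difference changed by -3.10, the widest of the 9 pairs (exact permutation test, p = 0.0571, adjusted 0.0643).

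Per kilobase of exon, the members stood in a different order at each stage. Exonic lengths came from GENCODE M21 and ranged from 1273 bases for Hes5 to 10500 bases for Notch2. In embryonic cortex Hes6 led at 47.0 ± 4.86 CPM per kb (SD, n = 4), clear of Mfng at 9.91, and Mfng, Notch1 (9.61), Hes5 (8.37), Dll1 (8.10) and Notch2 (7.46 CPM per kb) each overlapped the next over the samples. Below a gap after Notch2 followed Notch3 (4.12), Hes1 (3.61), Jag1 (3.13) and Dll3 (2.25 CPM per kb), again each overlapping the next.

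In adult cortex Hes5 stood highest at 9.19 ± 2.17 CPM per kb (SD, n = 3), overlapping Hes6 at 7.73 CPM per kb. Hes1 (5.21) was below Hes6 in every sample, and Notch1 (4.16 CPM per kb) below Hes1. Notch2 (2.78) and Notch3 (2.66 CPM per kb) overlapped. Dll1 (1.85), Mfng (1.598) and Jag1 (1.42 CPM per kb) each overlapped the next, and Dll3 was lowest at 0.450 CPM per kb, clear of Jag1.

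Each member was also set against the summed level of its relatives, per kilobase. Hes1, Hes5, Hes6, Hey1, Hey2 and Heyl, without the scarcer Hes2, Hes3 and Hes7, together summed to 66.2 ± 5.33 CPM per kb (SD, n = 4) before birth and 44.6 ± 5.33 (SD, n = 3) in the adult, and Hes6 made up 70.9% ± 1.95 of that sum before birth and 17.4% ± 0.458 in the adult. Hey1, a related repressor that Notch also switches on, went from 8.70% ± 0.750 to 44.2% ± 3.26 of the sum. Hes1 went from 5.49% to 11.6% and Hes5 from 12.7% to 20.5%, so both took a larger share of a smaller sum without overlap between stages.

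Among the ligands Dll1 went from 32.7% ± 1.88 (SD, n = 4) to 15.1% ± 1.37 (SD, n = 3) of the Delta and Jagged sum and Dll3 from 9.05% to 3.61%. Jag2, the other Jagged ligand, went from 40.0% to 62.3% of that smaller sum. The level of Jag2 itself fell, from 50.5 to 39.2 CPM with overlap between the stages (limma adjusted p = 0.0184), a call kept in 10 of 15 alternatives. The share of Jag1, 12.6% and 11.8%, overlapped between stages. Among the receptors Notch1 went from 42.7% to 37.2% and Notch2 from 33.3% to 24.8%, and Notch3 from 18.5% to 23.8%. Notch4, the receptor of endothelium, went from 5.52% to 14.2% of the receptor sum. Among the fringe enzymes Mfng went from 17.9% to 3.97% and Lfng from 9.27% to 20.6%, and Rfng held 72.9% and 75.5%, which overlapped. These shares add up within a family, so a fall of 1 gene raises the others, and they were not tested.

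**Figure D3:**
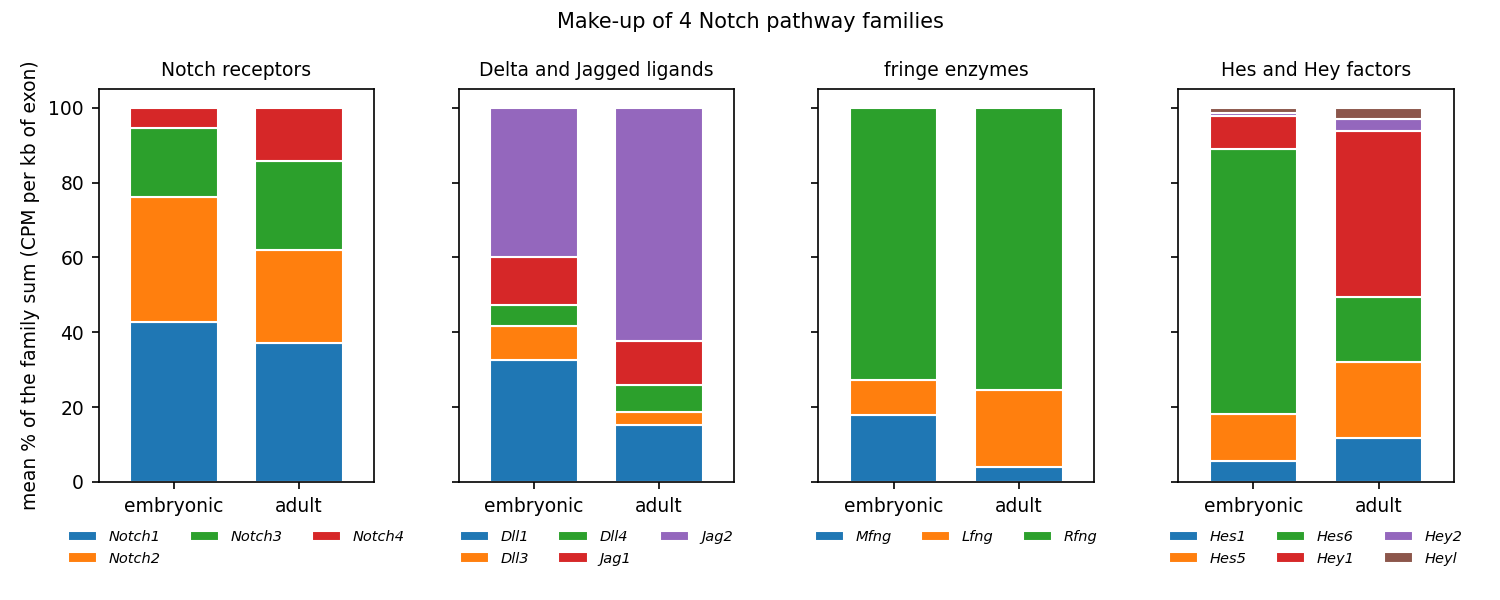
Mean share of each gene in the summed CPM per kb of the genes drawn for its family (without Hes2, Hes3 and Hes7), embryonic (n = 4) beside adult (n = 3), as stacked bars that reach 100%. The share of Hes6 shrinks from 70.9% to 17.4% and that of Mfng from 17.9% to 3.97%, while Hey1 and Lfng widen.

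The embryonic samples did not deviate from their mean alike. On the deposited scale embryonic sample 3 lay below the mean of its group by 0.41 for Notch1, 0.37 for Notch2 and 0.30 for Notch3, and above it by 0.17 for Hes6. The receptors are the longest of the members and the Hes genes the shortest. The members did not follow length throughout, since the deviation of embryonic sample 3 was 0.10 for Hes5 but -0.08 for Hes1. It was -0.15 for Mfng and -0.20 for Jag1, and the part of length was not tested. Over 11631 genes of at least 5 CPM with a known length, 88.5% of those at that level, the deviation of embryonic sample 3 correlated with exonic length at a Spearman rho of -0.455, given as a description across genes, which are not independent. The same rho was 0.315, 0.0221 and 0.269 in embryonic samples 1, 2 and 4 and between -0.136 and 0.172 in the adult samples. Without embryonic sample 3 the decrease was 1.22 for Notch1 and 1.42 for Notch2.

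**Figure D4:**
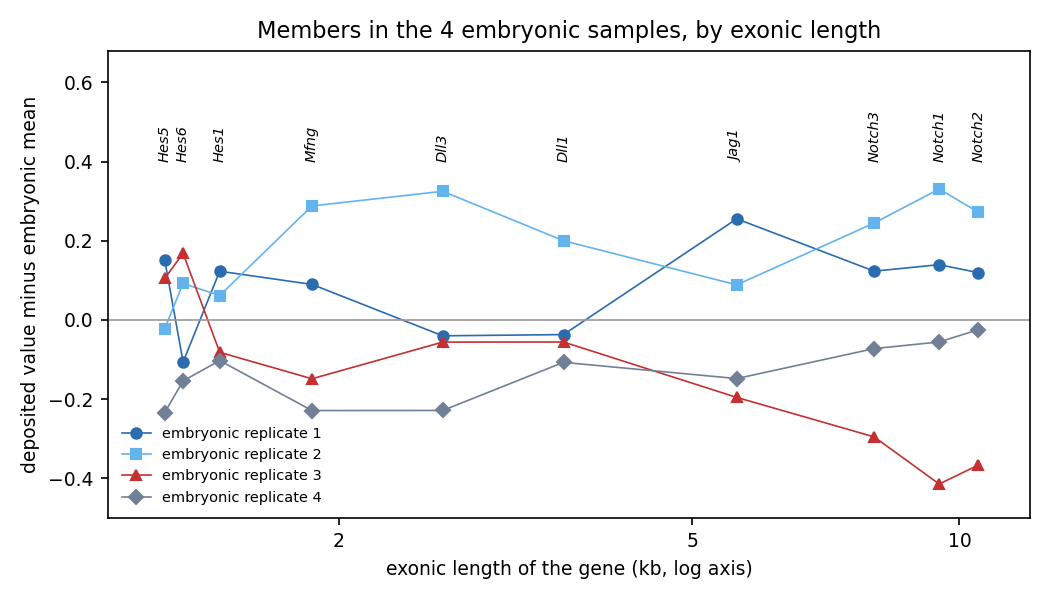
Deviation of each embryonic sample from the mean of the 4 embryonic samples, on the deposited scale, for the 10 members ordered by exonic length in kb on a log axis, with lines joining points of 1 sample. Embryonic sample 3 is above the mean for Hes5 and Hes6 and below it for the other members, Hes1 among them. It is the lowest sample for the 3 receptors and Jag1.

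Among the adult samples, sample 2 was above its group mean by 0.29 for Hes1, 0.33 for Hes5, 0.44 for Dll3 and 0.24 for Notch3. Its deviation was -0.18 for Jag1 and -0.11 for Mfng. Adult sample 2 also held the most reads of mature oligodendrocyte markers. Their summed level was 6915 CPM against 4922 and 3862 CPM in adult samples 1 and 3. Astrocyte markers were lowest in adult sample 2, at 5098 against 6023 and 6102 CPM. Sums for oligodendrocyte precursors, microglia, endothelium, and pericytes and smooth muscle were highest in that sample. Its sum of intermediate progenitor markers was highest too, 58.2 against 36.9 and 30.6 CPM. Most of that adult sum came from Btg2 and Gadd45g, with adult means of 18.2 and 15.6 CPM, which did not pass the test between stages. Eomes, Neurog2 and Insm1 had adult means of 0.924, 1.26 and 5.90 CPM, too low to give the spread of that sum. Without embryonic sample 3 and adult sample 2 together, 8 members were lower, 1 was higher and 1 did not pass, and 5 were lower beyond 2-fold. The part of these samples' makeup in the members' levels was not tested.

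Markers of cell types also differed between the stages, in both directions. The cortex markers Emx1, Neurod6, Tbr1 and Slc17a7 were detected in every sample, with Slc17a7 higher and the other 3 lower in the adult. Of 10 radial glia markers 8 fell and 2, Slc1a3 and Hopx, rose. Their summed level ranged from 1893 to 2113 CPM over the embryonic samples and from 893 to 921 CPM over the adult samples. Slc1a3, which went from a mean of 133 to 526 CPM, was the largest part of the adult sum. Intermediate progenitor markers, 4 of 6 lower, summed to 223 to 305 CPM and to 30.6 to 58.2 CPM, and young neuron markers, 6 of 6 lower, to 4985 to 5209 CPM and to 686 to 814 CPM. Markers of ganglionic eminence, the neighbouring source of interneurons, 6 of 6 lower, summed to 271 to 331 CPM before birth and to 54.0 to 64.6 CPM in the adult.

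The summed levels of glial and vascular markers were higher in every adult sample. Astrocyte markers, 8 of 8 higher, summed to 264 to 279 CPM before birth and to 5098 to 6102 CPM in the adult. Markers of oligodendrocyte precursors, 5 of 5 higher, summed to 90.1 to 99.7 and to 297 to 445 CPM, those of mature oligodendrocytes, 6 of 6 higher, to 48.7 to 51.7 and to 3862 to 6915 CPM, and those of microglia, 6 of 6 higher, to 22.2 to 26.3 and to 232 to 249 CPM. Endothelial markers, 4 of 8 higher and 1 lower, summed to 132 to 148 and to 184 to 204 CPM. Flt1 had the largest rise among them, from a mean of 20.3 to 77.9 CPM. Kdr fell from 31.5 to 17.7 CPM, and Cldn5, Cdh5 and Emcn did not pass. Markers of pericytes and smooth muscle, 6 of 8 higher and 2 lower, summed to 140 to 156 and to 184 to 214 CPM. The 2 lower ones were Kcnj8 and Abcc9, and on the deposited scale Acta2 and Myh11 rose most. Rgs5, from 77.1 to 103 CPM, was the largest part of that sum. Choroid plexus markers, 5 of 5 higher, summed to 0.976 to 1.62 CPM before birth and to 587 to 721 CPM in the adult, and meningeal markers, 5 of 5 higher, to 3.63 to 6.29 and to 63.6 to 72.2 CPM. No marker of these lists was at 0 in every sample of a stage, and the part of any of these cell types in the members' differences was not tested.

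The other pathway genes moved in both directions. Of 52 other pathway genes 51 could be tested, all but Hes2, which had at most 1 read in a sample, and 17 rose, 23 fell and 11 did not pass (limma, adjusted p under 0.05). Of all genes tested 35.8% rose and 33.9% fell, and the counts by role are to be read beside these shares. Their median difference was -0.16. Beyond 2-fold 4 of the 51 were higher and 1 was lower, where 14.0% and 8.47% of all genes tested were. The list was grouped by role, and the largest changes of each role are given here. Exons of Dll4, Aph1c, Psenen, Maml1, Spen and Numb also overlap a gene on the other strand in GENCODE M21.

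Ligand ubiquitin ligases, which make a signalling cell take up its ligand and so pull on the receptor, rose in 4 of 4. Neurl1a went from 18.4 ± 1.36 (SD, n = 4) to 171 ± 14.2 CPM (SD, n = 3), an increase of 3.24 (limma adjusted p = 1.46e-12), and Mib1 from 146 to 233 CPM, an increase of 0.76 (limma adjusted p = 1.11e-05). The remaining receptor, Notch4, rose from 7.95 to 10.4 CPM, by 0.44 (limma adjusted p = 0.00988), a call lost in 4 of 15 alternatives.

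Of the 5 other ligands 1 rose, 2 fell and 2 did not pass. Dlk1, a ligand-like protein without the usual receptor-binding domain, rose from 9.37 ± 2.40 to 20.2 ± 9.65 CPM with overlap between the stages, by 1.06 (limma adjusted p = 0.00203). Without adult sample 2 and embryonic sample 3 together the increase of Dlk1 was 0.58 and did not pass (limma adjusted p = 0.0927). Dll4, the Delta ligand of vessels, fell from 5.19 to 3.35 CPM (limma adjusted p = 0.0196), and that call was lost in 8 of 15 alternatives. Of the 4 other glycosylation genes Lfng rose, Rfng and Pofut1 fell and Poglut1 did not pass. Pofut1, which puts the first fucose on Notch, went from 47.7 to 30.5 CPM (limma adjusted p = 2.16e-05).

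Proteases that cut the receptor fell in 6 of 10 and rose in 3. Aph1b, a subunit of gamma-secretase, the complex that releases the intracellular part, fell from 54.4 to 29.98 CPM, by 0.76 (limma adjusted p = 3.60e-06). Psen2, a catalytic subunit of the same complex, rose from 11.1 to 17.02 CPM, by 0.66 (limma adjusted p = 0.000253). The subunits Aph1c, from 9.38 to 12.3 CPM, and Psenen, from 10.9 to 13.7 CPM, rose as well (limma adjusted p = 0.00309 and 0.00358). The calls of Aph1c and Psenen were lost when samples were centred on their medians.

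Nuclear partners fell in 4 of 5. Rbpj, the DNA-binding protein of the pathway, went from 87.1 ± 6.60 (SD, n = 4) to 36.2 ± 2.51 CPM (SD, n = 3), a decrease of 1.16 (limma adjusted p = 2.14e-08), and Maml1, the coactivator that joins it, from 28.5 to 12.5 CPM, a decrease of 1.05 (limma adjusted p = 6.05e-07). Corepressors fell in 6 of 8, led by Tle3, a Groucho protein that Hes factors recruit, which went from 172 to 52.4 CPM (decrease 1.61, limma adjusted p = 1.72e-10), and by Spen, which binds RBPJ, from 246 to 116 CPM (decrease 0.98, limma adjusted p = 7.36e-07).

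Genes that dampen the pathway were divided, with 2 of 9 higher, 3 lower and 4 not passing. Numb, which sends the receptor to endosomes, rose from 18.1 ± 1.16 to 47.8 ± 3.42 CPM, by 1.44 (limma adjusted p = 4.42e-09, treat adjusted p = 0.000884). Fbxw7, which marks the cut receptor for breakdown, rose from 91.2 to 244 CPM, by 1.49 (limma adjusted p = 1.63e-09, treat adjusted p = 0.000204).

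Of the 5 other Hes and Hey genes tested, 4 rose and 1 did not pass. Hey1 went from 13.9 ± 0.667 (SD, n = 4) to 47.6 ± 4.05 CPM (SD, n = 3), an increase of 1.80 (limma adjusted p = 5.13e-10, treat adjusted p = 3.97e-06). Hes3 was called higher (limma adjusted p = 0.0130) on 0 to 10 reads a sample, and that call was lost in 3 of 14 alternatives.

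**Figure D5:**
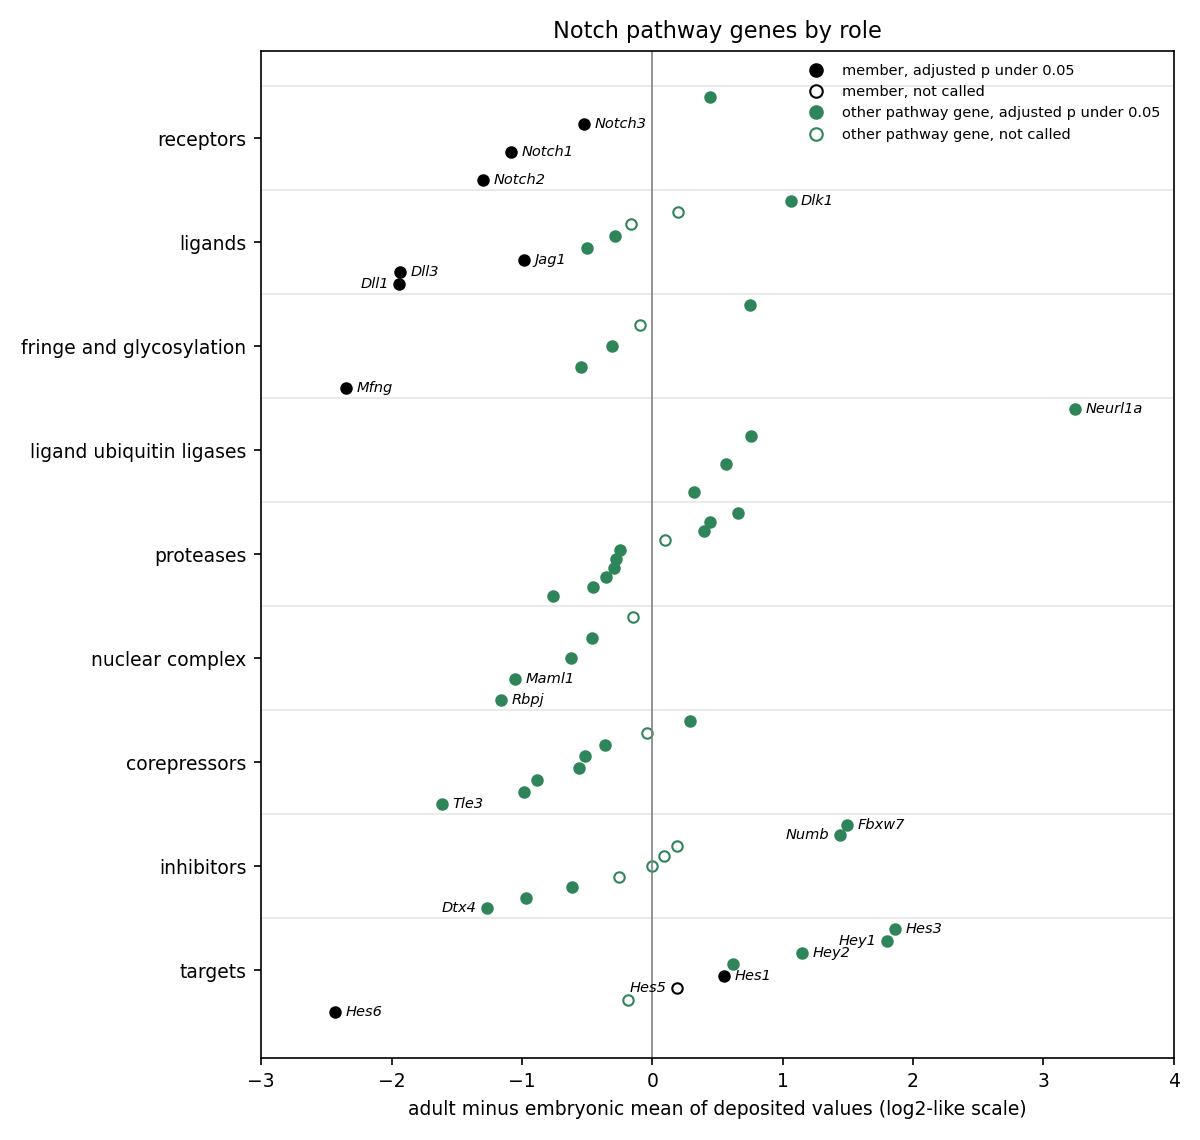
Difference of adult minus embryonic means on the deposited log2-like scale for the 10 members (black) and 51 other pathway genes (green), in rows by role, filled where the limma adjusted p was under 0.05. Members among receptors, ligands and fringe enzymes lie left of 0, and ligand ubiquitin ligases lie right of 0. The row labelled targets holds the Hes and Hey genes tested, whatever their relation to Notch, and spans Hes6 at -2.43 to Hes3 at 1.86.

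A second table gives a value per exon, from which the ratio of gene reads to exon reads, rounded to a whole number, could be read back. Of the members it held only Hes5 and Hes6, with 3 exons each, and none of the 6 was called (limma diffSplice, adjusted p under 0.05), where 4.86% of 86181 exons were. The lowest p belonged to the Hes5 exon that starts at position 154335501 of chromosome 4 in mm9, the build of the files (limma adjusted p = 0.253), the 1 exon of the members with an unadjusted p under 0.05. Its ratio was 2 in embryonic samples 1, 2 and 4 and 1 in the other samples, so embryonic sample 3 matched the adult ones. The first listed Hes5 exon, at position 154335032, held 1 read in 8 to 15 of the gene before birth and 1 in 10 to 16 in the adult.

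For Hes6 the exon at position 93308060 of chromosome 1 had a ratio of 1 in all samples, which stands for any ratio under 1.5. The exon at position 93309634 held 5.54% ± 1.38 (SD, n = 4) of the gene's reads before birth and 7.79% ± 1.12 (SD, n = 3) in the adult, and did not pass (limma adjusted p = 0.398). Among 35 other pathway genes with exon values 22 of 465 exons were called, 4.73%, close to the share over all exons. The lowest adjusted p among them, noticed after the values were seen, belonged to the Fbxw7 exon at position 84707423 of chromosome 3, which held 9.06% ± 1.48 of the gene's reads before birth and 3.04% ± 0.618 in the adult (limma diffSplice, adjusted p = 7.07e-12). That exon was called in all 10 alternatives tried for exons.

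The genes whose profile over the 7 samples was most like that of each member were sought by the smallest Euclidean distance between values centred on the gene mean. For Hes6 they were Gm5620, Tuba1c and Gm3226, at distances of 0.152 to 0.173. For Mfng they were AC131675.1, Kif22 and Gm13659 (0.261 to 0.322), for Dll1 Zscan21, Aldh18a1 and Igdcc3 (0.167 to 0.180), and for Dll3 A630055G03Rik, Tspo2 and Nynrin (0.182 to 0.267). For Jag1 they were Igf1r, Med18 and AC132303.1, at distances of 0.166 to 0.201. No member was among the nearest genes of another.

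The receptors had separate neighbours. For Notch1 they were Nkapl, Erbb2 and Zfp521 (0.223 to 0.269), for Notch2 Diap3, Nedd1 and Zmynd17 (0.153 to 0.182), and for Notch3 Gm1826, AC159900.1 and Col12a1 (0.118 to 0.221). For Hes1, the member that rose, they were Abtb2, Sox13 and Dpp9 (0.128 to 0.162), and for Hes5 Bad, Jph4 and Acbd6 (0.243 to 0.273). The 7 points of such a profile share 2 stages and the libraries, so the likeness is given as a description.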

How the data were processed

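Messenger RNA of mouse cerebral cortex was sequenced in 4 embryonic and 3 young adult samples, from RNA extracted with trizol and libraries made with an Illumina mRNA kit, per the labels' protocols. The submitters' processing notes name the mm9 build and, with no role or order, HTSeq 0.5.3p3, SAMtools 0.1.7a, Bowtie 0.12.7.0, TopHat 1.0.13 and CASAVA 1.7.1. The authors deposited gene values on a variance-stabilized, log2-like scale, by a tool that the sources do not state. The deposited exon values are a variance-stabilized score. Read back through the function that links each column's values to whole numbers, they are the ratio of gene reads to exon reads rounded to the nearest whole number.

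At least 99.995% of gene values and 99.981% of exon values in each sample came out within 0.1 of a whole number. Whole gene counts recovered in this way gave CPM, and the smallest library held 18444271 reads in genes. Differences were tested on the deposited values with limma 3.58.1 in R 4.3.3 (eBayes with a mean-variance trend, treat for 2-fold, diffSplice for exons), 2-sided, with Benjamini-Hochberg adjustment over all features tested and a threshold of 0.05. Genes at a column's minimum in more than 3 of the samples were left out. The exon design had assumed plain exon values, and diffSplice was kept on the ratio score, where a higher value means that an exon holds less of its gene. Pairs of members were compared with exact permutation tests over 35 assignments of samples. Recovery and limma were tested on simulated data.

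The text names all 10 members, from each role of the pathway list the 2 called genes with the largest difference and any called against the majority of that role, and the 3 nearest profiles. Some genes of these lists are not reported here. Members, lists and rules were chosen with earlier results of these data known. Alternatives were other filters, scalings and models, voom on the recovered counts, a replicate block, and leaving out each sample. One alternative, leaving out adult sample 2 and embryonic sample 3 together, was added after seeing the data.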

Additional observations from a re-analysis of the deposited data

Results flagged for a closer look

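Among 61 pathway genes, the 4 embryonic samples were searched on the deposited scale for a sample that stood far from the others. The measure was the gap to its nearest neighbour as a share of the group's range, against the 95% critical value of Dixon's test. No member had one. Mib1, a ligand ubiquitin ligase, had 119 CPM in embryonic sample 3 and 154 to 158 CPM in the other embryonic samples. On the deposited scale its gap was 0.879 of the range. Hey1 had 12.9 CPM in embryonic sample 1 and 14.1 to 14.3 CPM in the others, with a gap of 0.846 of the range on the deposited scale. Chance gives about 1 such group in 20, and 2 of the 61 genes had one. Both genes were higher in every adult sample than in any embryonic one.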

How the results depend on the processing

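Notch1, Notch2, Dll1, Dll3, Jag1, Hes6 and Mfng kept their direction and their call in all 15 alternatives. Notch3 lost its call without a filter on low genes and Hes1 under quantile normalization. Hes5 gained one without adult sample 3 (adjusted p = 0.0389 in limma). Members called higher numbered 0 under quantile normalization and 1 to 2 when samples were left out in turn. Lower beyond 2-fold were 4 or 5 members, the fifth being Notch2. The change of Dll1 minus Dll3 was -0.00205 and turned to 0.15 with log2 of CPM plus a pseudocount of 0.1, 0.04 without embryonic sample 4 and 0.16 without adult sample 2, the range over left-out samples being -0.11 to 0.16. Centring samples on their medians moved the median over all genes by -0.18 and lowered the share of calls that were higher from 51.4% to 43.6%. Exon calls ranged from 2757 (without adult sample 2) to 6797 (without adult sample 3) around 4185 when samples were left out in turn, and no exon of a member was called in any of these fits. The causes were not tested. Over single genes and pairs, 487 results under an alternative kept their direction and side of the threshold, 30 lost a call, 1 gained one and 3 turned.

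Replicate numbers occur in both stages. Deviations of same-numbered samples correlated at 0.00879, 0.0567 and 0.0405, higher than any differently numbered pair but under the 0.1 taken to show pairing. With the replicate number as a block, 15555 genes were called in place of 15916, 5040 in place of 5136 beyond 2-fold, and 4001 exons in place of 4185. In that blocked fit 8 members were lower, 5 of them beyond 2-fold, and 1 was higher. Embryonic sample 4 has no adult sample of its number, so it adds nothing to the blocked estimates. They equalled those without embryonic sample 4, such as -1.10 for Notch1 and 0.11 for Hes5, so these 2 alternatives are not separate for the size of a difference. Counts were low for Dll3, with 19 to 39 reads in adult samples, and for Hes3, with at most 10.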
